A study of Mus musculus with 90 samples.

Results

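Lungs of CYP2F1 humanized (TG) mice that had inhaled styrene at 120 ppm were set against lungs of TG mice that had breathed air only. The arrays were chosen by the strain, dose and duration in each array's title, which gave 20 of the 90 arrays of the series, 10 at 120 ppm and 10 at 0 ppm. Each array was hybridised with RNA of the whole lung of 1 animal. The 4 groups held 5 animals each: TG at 120 ppm for 1 week, TG at 120 ppm for 4 weeks, TG at 0 ppm for 1 week and TG at 0 ppm for 4 weeks. Exposure ran for 6 hours a day on 5 days a week, and the lungs were collected on the morning after the last session. The labels give no clock hour for each collection.

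All animals were adult male C57Bl/6 mice from one supplier. TG mice lack mouse Cyp2f2, written CYP2F2(-/-), and carry human transgenes that the design text writes as 2F1, SA13 and 2B6. The air controls of the strain carry the same deletion and the same transgenes. The labels name no promoter or cell type for the transgenes, and their transcripts were not analysed here. TG lungs at 40 ppm (10 arrays), CYP2F2 knockout (KO) lungs at 120 and 0 ppm (20 arrays) and wild type (WT) lungs at 120 and 0 ppm (20 arrays) served for comparison. KO mice carry the deletion without the transgenes.

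Styrene is a solvent that club cells, the secretory cells of the small airways, oxidise to reactive products, and in the mouse lung Cyp2f2 is the P450 best known for this step. By genotype TG mice carry human P450 genes in place of Cyp2f2, so the comparison asks what inhaled styrene does to such a lung. Whether these genes were active in the airway was not tested. The circadian clock is a loop of transcription factors. Arntl (Bmal1) pairs with Clock or Npas2 and switches on Per, Cry and Nr1d genes and the output factors Dbp, Tef and Hlf, while Nr1d proteins switch Arntl, Npas2 and Nfil3 off again.

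Cyp2f2, read by 1 probe set, had log2 values of 11.58 (lowest), 11.84 (median) and 11.97 (highest) in TG lungs at 120 ppm, against 11.63, 11.94 and 12.05 in TG lungs at 0 ppm. WT lungs averaged 13.08 ± 0.21 at 120 ppm and 13.27 ± 0.05 at 0 ppm (SD, n = 10 each). The TG signal was thus below both WT means but far above the array medians, and whether the probe set lies in the deleted part of the gene is not known here. Within TG lungs the dose made a difference of -0.07 (SE 0.06, limma adjusted p = 0.76). Scgb1a1, the club cell secretoglobin, averaged 13.75 ± 0.10 at 120 ppm and 13.78 ± 0.08 at 0 ppm. The alveolar type II surfactant gene Sftpc averaged 13.81 in both. These transcripts were thus at like signal, but near the highest value of all arrays (14.01), where a difference may be hard to see. In the lists of their cell types, 19 of 20 club and secretory genes had a negative sign. So had 12 of 16 alveolar type II genes, against 57.4% of all genes. None of these genes passed.

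The array medians were close, 4.79 ± 0.07 at 120 ppm and 4.76 ± 0.09 at 0 ppm (log2, SD, n = 10 each). In the array weights that limma estimates from how well an array follows its group, 1 array of TG at 0 ppm for 1 week (animal 5, weight 0.155) and 1 array of TG at 120 ppm for 1 week (animal 1, weight 0.251) had the lowest weights of the 20, with the next at 0.309 and 0.398. Counts of genes are also given without these 2 arrays where they change. The spiked poly-A controls averaged 6.61 ± 0.24 at 120 ppm and 6.76 ± 0.28 at 0 ppm.

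Of 17097 genes measured, 47 passed a Benjamini-Hochberg adjusted p under 0.05 between TG lungs at 120 and 0 ppm with both durations averaged, which is 0.275% of the genes. Of these, 9 rose (0.0526%) and 38 fell (0.222%), and 18 changed by more than 1.5-fold. The median gene changed by -0.02 on the log2 scale. Without the 2 arrays of lowest weight, 37 genes passed, 19 that rose and 18 that fell, so the excess of falls was not kept. Of the 37, 24 were among the 47. The 23 that no longer passed were Batf, Bik, Cct7, Cdkn1a, Creld2, Dapk1, Dnaja4, Dnajb2, Dtx4, H2bc22, H3c15, Manf, Mmp3, Mrps6, Mucl2, Parm1, Rasl11a, Rhou, Sdf2l1, Sgf29, Spon2, Tbc1d8 and Tmem33, all with the same sign as before. Clock genes, cytosolic and mitochondrial chaperones, and chaperones of the endoplasmic reticulum were among the 47. All 47 had the same direction at both durations. They were chosen by the average over both durations, which favours a shared direction, so this is not a separate test.

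**Figure D1:**
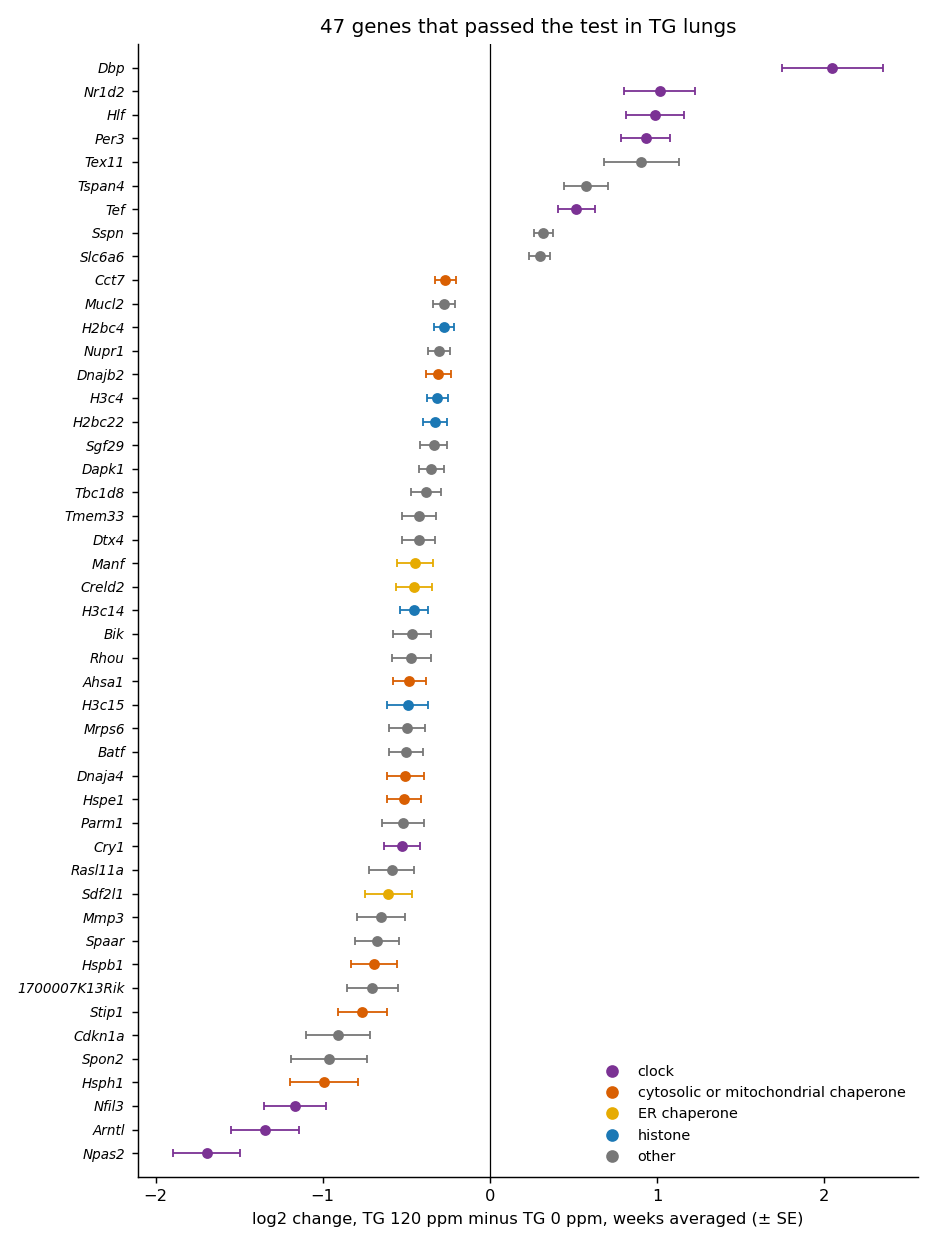
Log2 change (120 ppm minus 0 ppm, durations averaged) of the 47 genes that passed in TG lungs, with points for the estimate and bars for the standard error from the limma fit. Dbp at 2.05 and Npas2 at -1.69 lie at the ends, and 38 of the 47 genes lie below 0.

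Clock genes were at both ends of the changes that passed. Because the labels give no clock hour for each collection, the part of collection time in these changes was not tested. Dbp, an output factor, rose 4.14-fold in TG lungs at 120 ppm over TG lungs at 0 ppm (log2 2.05, SE 0.30, limma adjusted p = 2e-05). Npas2, the partner of Arntl, fell 3.24-fold (log2 -1.69, SE 0.20, adjusted p = 3.2e-08), and Arntl itself 2.55-fold (log2 -1.35, SE 0.20, adjusted p = 2.6e-05). The second probe set of Npas2, which was dim, changed by -0.47, the median of its probe sets by -1.08, and its exposed mean of 4.25 was under the lowest array median of 4.42, so the size of its fall is uncertain. The list of clock activators also held Nfil3, which is a repressor. Of its 7 measured members 0 rose and 3 fell (Npas2, Arntl and Nfil3). Of 13 other measured repressors and outputs 5 rose and 1 fell (Cry1), against 0.275% of all genes.

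In animals exposed to 120 ppm for 1 week, Npas2 had log2 values of 4.30, 3.71, 4.13, 4.19 and 3.38, against 5.72, 5.99, 6.01, 5.46 and 6.34 in those at 0 ppm for 1 week. After 4 weeks the values were 4.72, 5.07, 4.23, 4.85 and 3.89 at 120 ppm, against 6.24, 6.28, 5.77, 5.82 and 5.79 at 0 ppm. All 10 exposed animals lay below all 10 controls. Arntl had 6.22, 5.68, 5.41, 5.94 and 4.61 at 120 ppm for 1 week, against 7.28, 7.56, 7.35, 6.85 and 6.80 at 0 ppm. At 4 weeks it had 6.77, 6.68, 6.05, 6.65 and 5.54 at 120 ppm, against 7.87, 7.73, 6.94, 7.30 and 7.33 at 0 ppm. Here too no exposed animal reached a control.

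Dbp had 7.72, 8.55, 8.66, 8.32 and 9.19 in TG lungs at 120 ppm for 1 week, against 6.26, 4.87, 6.36, 7.39 and 7.67 at 0 ppm. At 4 weeks it had 7.81, 7.43, 8.13, 7.59 and 8.66 at 120 ppm, against 4.39, 5.07, 6.49, 6.65 and 6.42 at 0 ppm. The durations each separated fully, while across durations the groups overlapped, and the air controls spread more widely (SD 1.07) than the exposed animals (SD 0.57). Npas2, Arntl, Nr1d2, Nupr1 and H3c4 were the 5 genes whose 10 exposed and 10 control animals did not overlap at all, 0.0292% of the genes measured.

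Further members of both lists passed. Nr1d2 (Rev-erb beta, a repressor of Arntl) averaged 10.89 ± 0.34 at 120 ppm and 9.87 ± 0.50 at 0 ppm (SD, n = 10 each) and rose 2.02-fold (adjusted p = 0.0067). Hlf and Tef, the relatives of Dbp, rose 1.99-fold and 1.43-fold (adjusted p = 0.00072 and 0.0088), and Per3 rose 1.91-fold (adjusted p = 6.4e-05). With the median of its 5 probe sets Per3 was at 0.68 (adjusted p = 0.052) and did not pass. Nfil3, which competes with Dbp for the same DNA sites, fell 2.24-fold: 5.00, 5.78 and 6.47 (lowest, median, highest) at 120 ppm, against 6.28, 6.98 and 7.46 at 0 ppm (log2 -1.16, SE 0.19, adjusted p = 6.4e-05). Cry1, a repressor whose transcript peaks late in the cycle, fell 1.44-fold (log2 -0.52, SE 0.11, adjusted p = 0.0067).

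Members that did not pass show that not every clock transcript moved by as much. Clock was at -0.07 (log2, adjusted p = 0.9), Per1 at 0.17 (adjusted p = 0.76), Per2 at 0.26 (adjusted p = 0.67) and Ciart, a repressor, at 0.47 (adjusted p = 0.23). Both counts of clock genes were the same without the 2 arrays of lowest weight.

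**Figure D2:**
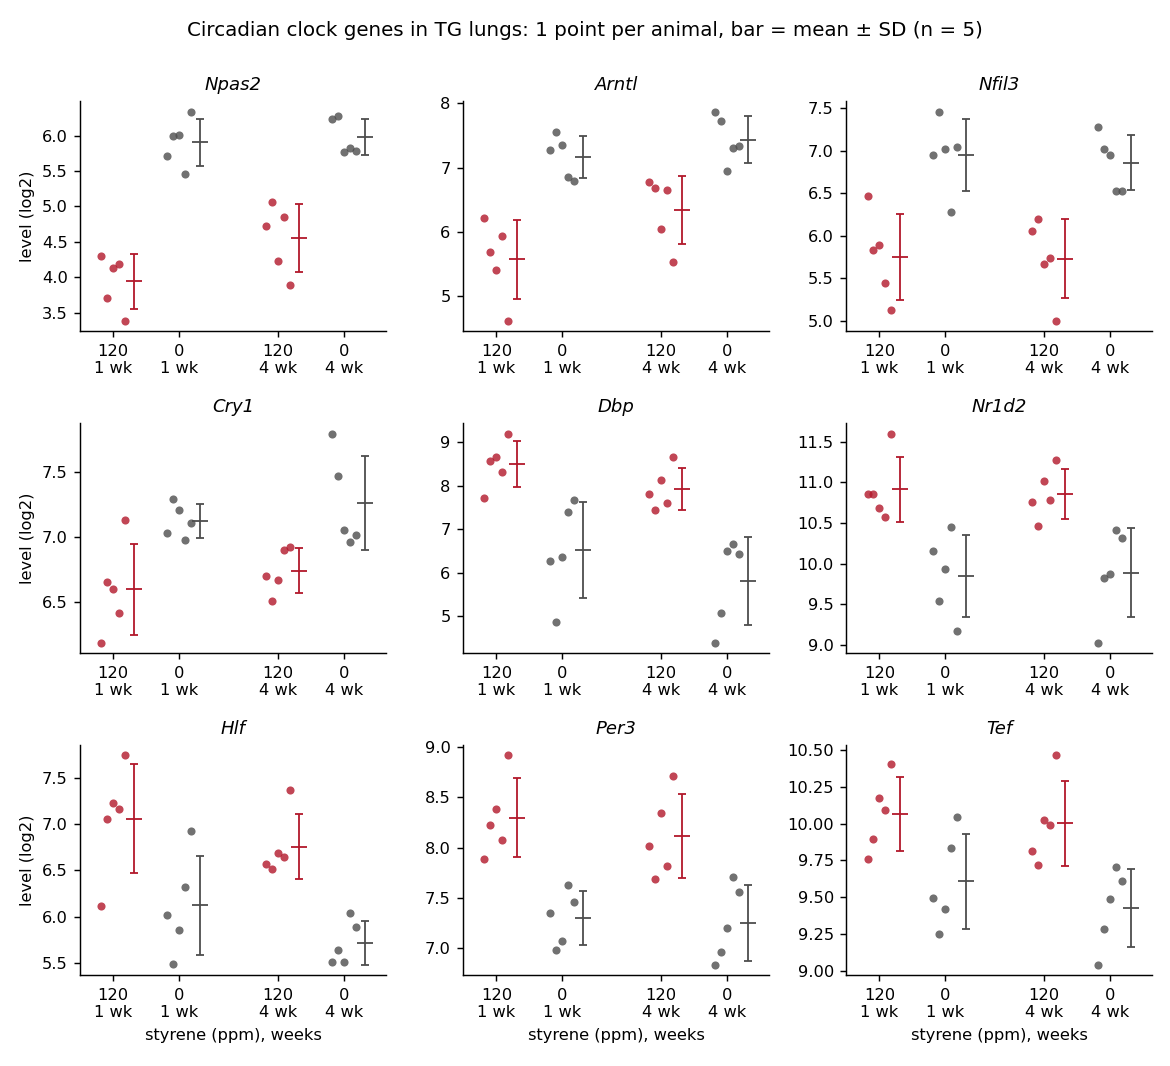
Log2 level of clock genes in each TG animal at 120 ppm and at 0 ppm, for 1 week and 4 weeks, 1 point per animal (5 per group), bars for the mean ± SD. The 10 exposed animals lie below the 10 controls for Npas2 and Arntl, and the 5 exposed animals of each duration lie above the 5 controls of that duration for Dbp.

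Promoter sequence is shown for clock genes that moved in TG lungs, because the clock's factors bind known short motifs. The windows are RefSeq promoters on GRCm38.p6, and 40 of the 47 genes had one. The 250 bases before each start were searched on both strands for the E-box CACGTG, the D-box (TTATGTAA, TTACGTAA or TTATGCAA) and the ROR element (TAGGTCA or TGGGTCA), which Arntl, Dbp and Nr1d proteins bind. Capitals mark the motif, which can stand on either strand, and each run is written in the direction of the gene. Per3 has a pair of D-boxes (chr4:151044806-151044880, minus strand), Tef (chr15:81802519-81802578, plus strand) and Cry1 (chr10:85185082-85185141, minus strand) an E-box, and Nfil3 a ROR element (chr13:52981040-52981099, minus strand).
Per3: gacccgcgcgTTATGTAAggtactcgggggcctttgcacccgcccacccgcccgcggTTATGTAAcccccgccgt
Tef: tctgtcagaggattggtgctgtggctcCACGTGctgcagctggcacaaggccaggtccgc
Cry1: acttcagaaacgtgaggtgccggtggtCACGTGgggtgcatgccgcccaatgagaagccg
Nfil3: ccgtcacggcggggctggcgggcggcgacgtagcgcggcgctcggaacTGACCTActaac

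These matches are descriptions of the sequence. A gene counts if any of its windows holds the motif, while the background counts single windows (32851 windows of 27025 genes). Shares of genes and of windows are therefore not the same measure. An E-box stood in 5 of the 40 genes (Cry1, Hsph1, Nupr1, Tef and Tspan4) and in 6.02% of all 32851 windows. A D-box stood in 1 (Per3) and in 1.61% of windows, and a ROR element in 3 (Dnajb2, Nfil3 and Spaar) and in 5.38% of windows. The windows of Dbp and Npas2 held none of these letters, and no match was found for Arntl, Nr1d2 or Hlf either. Tef also has an E-box in another window (chr15:81811249-81811308, plus strand), which is not shown.

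Some chaperones of the cytosol and the mitochondrion fell. Hsph1 (Hsp105), a nucleotide exchange factor for Hsp70, fell 1.99-fold in TG lungs at 120 ppm (log2 -0.99, SE 0.20, limma adjusted p = 0.0067). Stip1 (Hop), which links Hsp70 to Hsp90, fell 1.70-fold (log2 -0.76, SE 0.14, adjusted p = 0.0021), and the small chaperone Hspb1 1.62-fold (log2 -0.69, SE 0.14, adjusted p = 0.0047). Of the 13 measured heat shock and cold-inducible genes, 0 rose and 3 fell (Hsph1, Hspb1 and Hspe1), against 0.222% of all genes that fell. The list's median change was -0.33, against -0.02 over all genes.

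Hsph1 had 9.31, 9.47, 9.65, 9.13 and 9.67 in TG lungs at 120 ppm for 1 week, against 10.44, 10.65, 10.98, 10.73 and 9.18 at 0 ppm. At 4 weeks it had 9.50, 10.02 and 10.05 (lowest, median, highest) at 120 ppm, against 10.65, 10.98 and 11.33 at 0 ppm. The control at 9.18 was the animal whose array had the lowest weight, and all 5 exposed lungs at 4 weeks lay below all 5 controls. Stip1 had 7.60, 8.09, 8.24, 8.09 and 7.90 at 120 ppm for 1 week, against 8.40, 8.85, 9.13, 8.86 and 8.77 at 0 ppm. At 4 weeks Stip1 had 7.81, 8.47, 8.30, 8.38 and 8.44 at 120 ppm, against 8.81, 9.21, 8.87, 9.14 and 8.89 at 0 ppm, again with no overlap within a duration.

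Hspb1 had 10.92, 11.29 and 11.69 (lowest, median, highest) at 120 ppm, against 11.59, 12.06 and 12.23 at 0 ppm. Hspe1 (Hsp10), the lid of the mitochondrial chaperonin, had 9.90, 10.25 and 10.44 at 120 ppm, against 10.40, 10.73 and 10.99 at 0 ppm, and fell 1.43-fold (log2 -0.51, SE 0.10, adjusted p = 0.0047). Hspe1 separated fully within each duration. The next 4 were named after their values were seen. Dnaja4, a J-domain partner of Hsp70, fell 1.42-fold (adjusted p = 0.011), Ahsa1, the activator of the Hsp90 ATPase, 1.40-fold (adjusted p = 0.0048), Dnajb2 1.24-fold (adjusted p = 0.046) and Cct7, a chaperonin subunit, 1.20-fold (adjusted p = 0.034). With the median of its 2 probe sets in place of the brighter one, Ahsa1 changed by -0.24 and did not pass.

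The major inducible and constitutive Hsp70 and Hsp90 transcripts did not pass. Hspa1b, which shares nearly all of its sequence with Hspa1a and may be read together with it, had 8.91, 9.50 and 10.99 at 120 ppm, against 8.82, 11.26 and 11.91 at 0 ppm (log2 -1.27, SE 0.36, adjusted p = 0.13), and passed without the 2 arrays of lowest weight. Hspa8 was at -0.18 (adjusted p = 0.23) and Hsp90aa1 at -0.37 (adjusted p = 0.64). The cold-inducible Cirbp, the member highest in the list, was at 0.49 (adjusted p = 0.47).

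**Figure D3:**
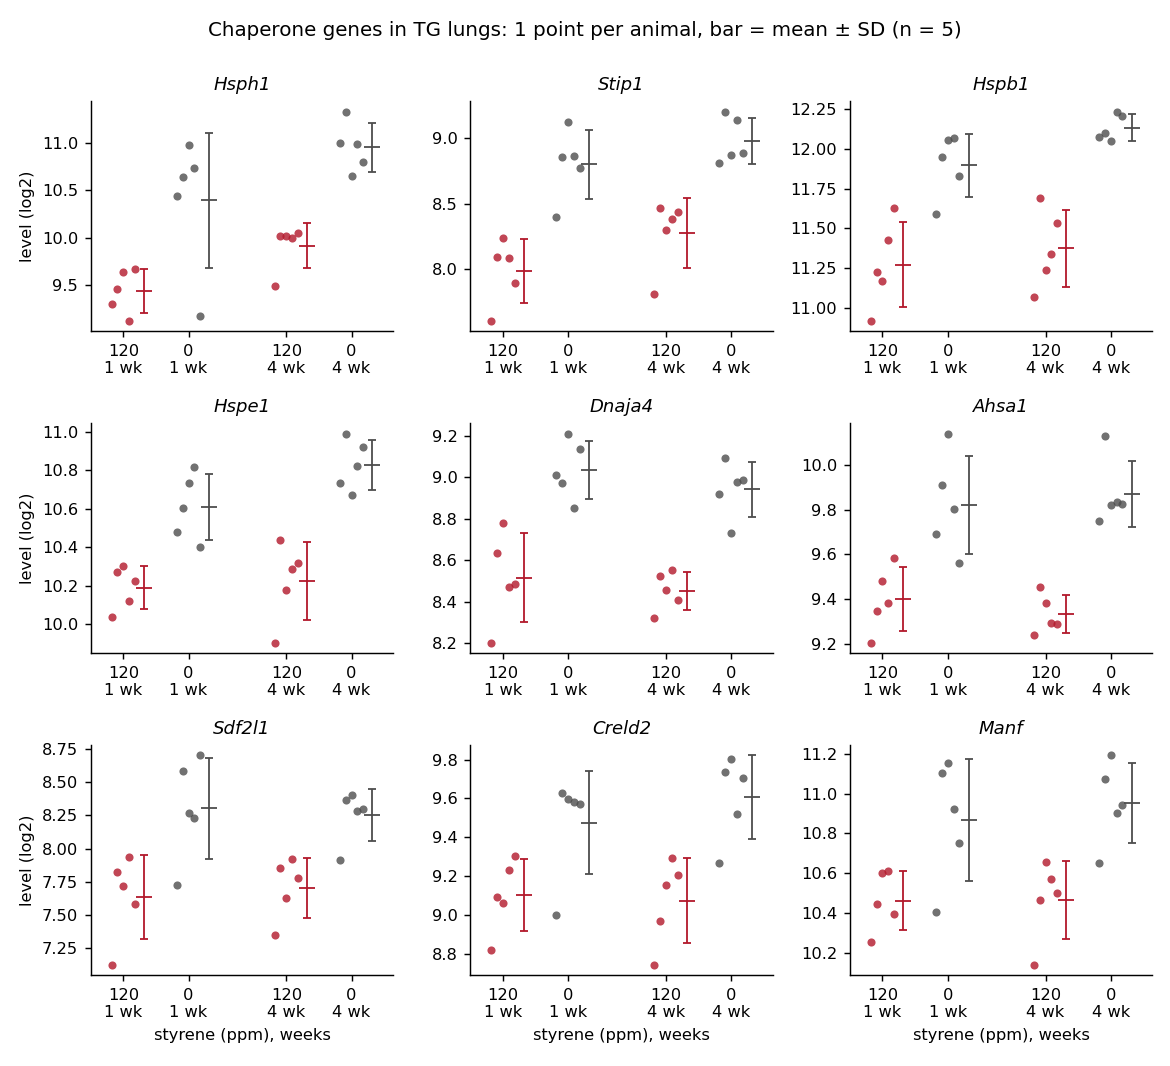
Log2 level of chaperone genes in each TG animal at 120 ppm and at 0 ppm, for 1 week and 4 weeks, 1 point per animal (5 per group), bars for the mean ± SD. The Stip1 and Hspe1 points of exposed and control animals do not overlap within either duration, and 1 control of the 1-week group lies at 9.18 for Hsph1.

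The endoplasmic reticulum has its own chaperones, which the unfolded protein response raises. Of 19 measured genes of this response and of amino acid stress, 0 rose and 3 fell in TG lungs at 120 ppm. Among all genes 0.222% fell. All 19 had a negative sign, against 57.4% of all genes. Sdf2l1, which holds the chaperone complex together, averaged 7.67 ± 0.26 at 120 ppm and 8.28 ± 0.29 at 0 ppm (SD, n = 10 each) and fell 1.52-fold (log2 -0.61, SE 0.14, adjusted p = 0.024). Creld2 averaged 9.09 ± 0.19 and 9.54 ± 0.24 and fell 1.37-fold (adjusted p = 0.034), and the secreted stress protein Manf averaged 10.46 ± 0.16 and 10.91 ± 0.25 and fell 1.36-fold (adjusted p = 0.03). Without the 2 arrays of lowest weight, 0 of the 19 passed.

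The main chaperone of the compartment, Hspa5 (BiP), was at -0.26 (adjusted p = 0.24), Pdia6 at -0.28 (adjusted p = 0.083) and the stress factor Ddit3 at -0.33, none of which passed.

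Sequence is shown for 3 chaperone promoters because each holds a stress motif in capitals. The heat shock element was searched as GAANNTTCNNGAA or TTCNNGAANNTTC, its short form as GAANNTTC or TTCNNGAA, which the long form contains, and the ER stress element as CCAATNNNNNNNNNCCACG, all on both strands of the 250 bases. Hspe1 (chr1:55088038-55088097, plus strand) holds the long form, Hspb1 (chr5:135887786-135887845, plus strand) a pair of the short form, and Creld2 (chr15:88819499-88819558, plus strand) the ER stress element on the other strand.
Hspe1: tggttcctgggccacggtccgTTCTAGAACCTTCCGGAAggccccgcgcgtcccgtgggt
Hspb1: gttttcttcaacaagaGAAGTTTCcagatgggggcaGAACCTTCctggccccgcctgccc
Creld2: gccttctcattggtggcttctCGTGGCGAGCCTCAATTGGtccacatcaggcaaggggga

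Counted in the same way, by gene and by window, the long element stood in 1 of the 40 genes (Hspe1) and in 0.466% of all windows. The short form stood in 8 genes and in 12.8% of windows, and the ER stress element in 1 (Creld2) and in 0.113% of windows. The window of Stip1 held none of them.

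Other passed genes belonged to none of these groups. Cdkn1a (p21), the inhibitor of cyclin-dependent kinases, had 8.47, 9.02 and 9.84 (lowest, median, highest) at 120 ppm, against 9.33, 9.85 and 10.42 at 0 ppm, and fell 1.88-fold (log2 -0.91, SE 0.19, adjusted p = 0.0071). It was the only one of 22 measured p53 targets, and of 23 glucocorticoid-responsive genes, to pass. Spon2, a matrix protein that also aids innate immunity, had 4.86, 6.59 and 7.02 at 120 ppm, against 6.92, 7.35 and 7.78 at 0 ppm, and fell 1.95-fold (log2 -0.96, SE 0.23, adjusted p = 0.03). The median of its 2 probe sets gave -0.62. It was the only one of 21 fibroblast and matrix genes to pass, and neither Cdkn1a nor Spon2 passed without the 2 arrays of lowest weight.

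Mmp3, the matrix protease stromelysin, averaged 7.71 ± 0.28 at 120 ppm and 8.36 ± 0.22 at 0 ppm and fell 1.57-fold (adjusted p = 0.011). Spaar, which encodes a small peptide of the lysosome that restrains mTORC1, fell 1.60-fold (adjusted p = 0.0041). 1700007K13Rik averaged 9.06 ± 0.33 and 9.76 ± 0.25 and fell 1.63-fold (adjusted p = 0.0097). Rasl11a and Parm1 fell 1.5-fold and 1.44-fold (adjusted p = 0.019 and 0.038).

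Rising genes outside the clock numbered 4. Tex11, known from meiosis, averaged 5.40 ± 0.63 at 120 ppm and 4.5 ± 0.38 at 0 ppm and rose 1.87-fold (adjusted p = 0.046). Tspan4, a tetraspanin, rose 1.49-fold (adjusted p = 0.02), Sspn, of the dystrophin complex, 1.25-fold (adjusted p = 0.00072) and the taurine transporter Slc6a6 1.23-fold (adjusted p = 0.0067). With the median of its 4 probe sets Slc6a6 was at 0.14 and did not pass.

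The remaining passed genes were named after their values were seen. Nupr1, a stress-induced nuclear protein, had 10.48, 10.72 and 10.86 at 120 ppm, against 10.86, 10.98 and 11.17 at 0 ppm, a fall of only 1.23-fold without overlap (adjusted p = 0.011). Batf, a transcription factor of lymphocytes, fell 1.42-fold (adjusted p = 0.0047). Histone genes made up 5: H3c14 fell 1.37-fold (adjusted p = 0.0012), H3c15 1.41-fold (adjusted p = 0.045), H2bc22 1.26-fold (adjusted p = 0.011), H3c4 1.24-fold (adjusted p = 0.0048) and H2bc4 1.21-fold (adjusted p = 0.011). Histone genes are near-identical copies, so which copy a probe set reads is uncertain. H3c4 and Mucl2 averaged below 4.42, the lowest array median, in both groups, and a change at such a level is uncertain. Mrps6, Rhou, Bik, Dtx4, Tmem33, Tbc1d8, Dapk1, Sgf29 and Mucl2 fell by between 0.27 and 0.50 on the log2 scale. With the median of probe sets Tmem33 was at -0.11 and Sgf29 at -0.22, and these, Bik and Tbc1d8 did not pass.

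Taken by duration, fewer genes passed. Dbp and Npas2 were the 2 genes that passed at 4 weeks (0.0117%, with 0.00585% in each direction). At 1 week 8 genes passed (0.0468%): Npas2, Arntl, Nfil3, H3c15, H3c14 and Hemk1 fell (0.0351% of all genes fell), and Dbp and Per3 rose (0.0117%). Npas2 fell by 1.43 on the log2 scale in TG lungs at 120 ppm for 4 weeks (SE 0.29, adjusted p = 0.036) and by 1.96 at 1 week (SE 0.29, adjusted p = 2.5e-05). Dbp rose by 2.12 at 4 weeks (SE 0.43, adjusted p = 0.036) and by 1.98 at 1 week (SE 0.43, adjusted p = 0.044). Hemk1 was at -0.04 at 4 weeks and at -0.43 at 1 week (adjusted p = 0.047), and H3c15 at -0.17 at 4 weeks and at -0.81 at 1 week (adjusted p = 0.032).

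The difference between the durations was tested as an interaction, and limma called 0 genes (0%), with 872 at an unadjusted p under 0.05. The smallest adjusted p belonged to Grik1 (0.61 log2, SE 0.12, adjusted p = 0.077), which was below the lowest array median. Within each duration taken alone, exposed and control animals of 11 genes did not overlap and differed in the same direction (0.0643%), and 10 of these were among the 47: Arntl, Dbp, Dnaja4, H2bc22, H3c4, Hspe1, Npas2, Nr1d2, Nupr1 and Stip1.

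At 40 ppm limma called 0 genes between TG lungs at 40 and 0 ppm (0%), with 1527 at an unadjusted p under 0.05, and 0 between 120 and 40 ppm (0%), with 1678. The comparisons at 40 and 120 ppm share their air controls. Npas2 averaged 5.94 ± 0.28 at 0 ppm, 5.09 ± 0.64 at 40 ppm and 4.25 ± 0.52 at 120 ppm (SD, n = 10 each), and Dbp 6.16 ± 1.07, 7.33 ± 0.61 and 8.21 ± 0.57. The mean at 40 ppm thus lay between the others for both. Stip1 averaged 8.89 ± 0.23 at 0 ppm, 8.52 ± 0.32 at 40 ppm and 8.13 ± 0.29 at 120 ppm, and Hspb1 12.02 ± 0.19, 11.59 ± 0.31 and 11.32 ± 0.25. Npas2 had an adjusted p of 0.14 at 40 ppm and Dbp of 0.18, so neither value at the lower dose is a call.

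The KO strain has the deletion without the transgenes. Between KO lungs at 120 and 0 ppm 13 genes passed (0.076%, with 0.0468% higher and 0.0292% lower), and 11 of them were also among the 47 of TG lungs with the same direction: Arntl, Dbp, Hlf, Nfil3, Npas2, Nr1d2, Per3, Spaar, Spon2, Tef and Tspan4. That is 23.4% of the genes of TG lungs and 84.6% of those of KO lungs. Dbp was at 2.04 in KO lungs and Npas2 at -1.48 (log2), against 2.05 and -1.69 in TG lungs. Among chaperones none of the 13 heat shock genes passed in KO lungs, where Hspb1 was at -0.60 (adjusted p = 0.051) and Hsph1 at -0.64 (adjusted p = 0.54).

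The change at 120 ppm in TG lungs minus that in KO lungs passed for 1 gene (0.00585%), with 402 at an unadjusted p under 0.05. This was 4933424G05Rik, which averaged 2.76 ± 0.15 in TG lungs at 120 ppm, 3.03 ± 0.25 in TG lungs at 0 ppm, 3.03 ± 0.20 in KO lungs at 120 ppm and 2.73 ± 0.12 in KO lungs at 0 ppm (difference -0.57, SE 0.10, adjusted p = 0.0062). All 4 means lie below the lowest array median. No chaperone or clock gene differed between the strains by this test, which does not show that they respond alike: for Hsph1, the change was -0.99 (SE 0.20) in TG lungs and -0.64 (SE 0.20) in KO lungs.

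WT lungs keep Cyp2f2, and between 120 and 0 ppm 988 genes passed there (5.78%, with 3.67% higher and 2.11% lower). The change in TG lungs minus that in WT lungs passed for 575 genes (3.36%), with 414 lower (2.42%) and 161 higher (0.942%) in TG lungs. Of the 575, 393 passed in WT lungs and 6 in TG lungs, and the change was larger in WT lungs for 480. The signs in TG and WT lungs were opposite for 547 of the 575. The 575 were chosen by the difference itself, which favours opposite signs and a large change in WT lungs. These counts are therefore not a separate test, and most of the 575 did not pass in TG lungs. The median size of the change was 0.17 in TG lungs and 0.34 in WT lungs (log2). Without the 2 TG arrays of lowest weight, 191 genes passed. Of the 47 genes of TG lungs, 26 passed in WT lungs with the same direction, which is 55.3% of the 47 and 2.63% of the WT genes.

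Cell cycle genes were among those that differed between TG and WT lungs. Of all genes, 3.67% rose in WT lungs and 3.36% differed between these strains. Of 33 measured genes of mitosis, 0 passed in TG lungs, whose median change was -0.08, while 19 rose in WT lungs (median 0.48), and 14 differed between the strains. Cdk1, the mitotic kinase, was at -0.42 (SE 0.19, adjusted p = 0.46) in TG lungs and at 0.97 in WT lungs (difference -1.39, adjusted p = 0.00097). Of 29 genes of DNA replication 0 passed in TG lungs (median -0.05), 25 rose in WT lungs (median 0.54) and 19 differed. Tk1, thymidine kinase, was at -0.10 in TG lungs and at 1.08 in WT lungs. KO lungs, which lack the transgenes, also had 0 calls in both lists (median -0.04 for mitosis and 0.04 for DNA replication). Without the 2 arrays of lowest weight 7 of the mitosis genes and 5 of the replication genes differed between TG and WT lungs. Of all 17097 genes, 191 then differed.

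Genes of the Nrf2 pathway, which answers electrophiles and keeps glutathione reduced, were also among them. Of 26 measured, 0 passed in TG lungs (median -0.04) and 8 rose in WT lungs (median 0.17), and 8 differed (3 without the 2 arrays). Of all genes, 3.67% rose in WT lungs and 3.36% differed, and 191 of 17097 differed without the 2 arrays. Nqo1, the quinone reductase, had 4.32, 5.06 and 5.50 (lowest, median, highest) in TG lungs at 120 ppm, against 4.31, 4.77 and 5.51 in TG lungs at 0 ppm. Its change was 0.22 in TG lungs and 0.94 in WT lungs (difference -0.72, adjusted p = 0.014). Akr1b8, which reduces aldehydes, was at -0.09 in TG lungs and at 0.60 in WT lungs (difference -0.69, adjusted p = 0.0098). Of 16 alveolar type II genes, 0 passed in TG lungs and 6 rose in WT lungs, and 7 differed (4 without the 2 arrays). In KO lungs 0 of the 16 passed (median -0.04). Lcn2, which binds iron carriers, was at -0.10 in TG lungs and at 0.93 in WT lungs (difference -1.03, adjusted p = 0.0045).

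**Figure D4:**
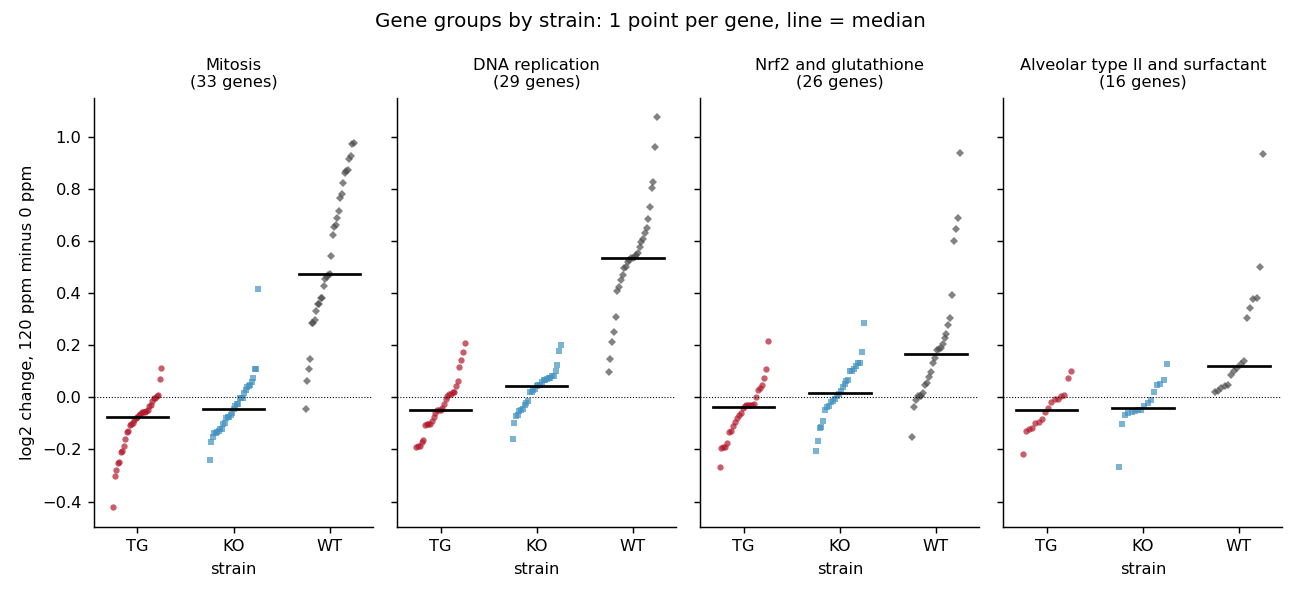
Log2 change at 120 ppm (120 ppm minus 0 ppm, durations averaged) of each measured gene of 4 lists (mitosis, DNA replication, Nrf2 and glutathione, and alveolar type II) in TG, KO and WT lungs, 1 point per gene with a line at the median. The TG medians are -0.08 for mitosis and -0.05 for DNA replication, against 0.48 and 0.54 in WT lungs.

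Several of the genes with the largest changes in WT lungs did not pass in TG lungs. Such genes were picked with earlier results of these data known, which can favour a larger change in WT lungs. Ces1g, a carboxylesterase, was at 0.02 in TG lungs and at 2.5 in WT lungs, at a mean of 3.37 ± 0.24 in TG lungs at 120 ppm, which is below the lowest array median. Asgr1, the asialoglycoprotein receptor subunit, was at 0.09 in TG lungs and at -1.65 in WT lungs (difference 1.73, adjusted p = 0.00082), and Pon1, a lactonase, at -0.17 and -1.67. Agr2, a disulfide isomerase of mucous cells, was at -0.60 (adjusted p = 0.57) in TG lungs and at 1.82 in WT lungs (difference -2.42, adjusted p = 0.0011).

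Several clock genes and chaperones passed in both strains. Dbp rose by 2.05 in TG lungs and by 3.38 in WT lungs (difference -1.33, adjusted p = 0.063). Npas2 fell by 1.69 in TG lungs and by 2.20 in WT lungs. Arntl fell by 1.35 in TG lungs and by 2.5 in WT lungs, and only this clock gene among the 47 differed by the test (difference 1.16, SE 0.29, adjusted p = 0.013). Of the heat shock genes 5 fell in WT lungs, Hsph1 by 0.85 and Hspb1 by 0.68 among them, against 2.11% of all genes. Stip1 was at -0.38 (adjusted p = 0.11) and Sdf2l1 at 0.04 in WT lungs, neither of which passed.

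The 6 genes that passed in TG lungs and also differed from WT lungs were 1700007K13Rik, Arntl, H2bc4, H3c4, Mrps6 and Sgf29. 1700007K13Rik was at -0.70 in TG lungs and at 0.03 in WT lungs (difference -0.73, adjusted p = 0.038), and Mrps6, a mitochondrial ribosomal protein, at -0.50 and 0.03 (difference -0.52, adjusted p = 0.038). Sgf29, a chromatin reader of the SAGA complex, was at -0.34 and 0.11 (difference -0.44, adjusted p = 0.017).

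**Figure D5:**
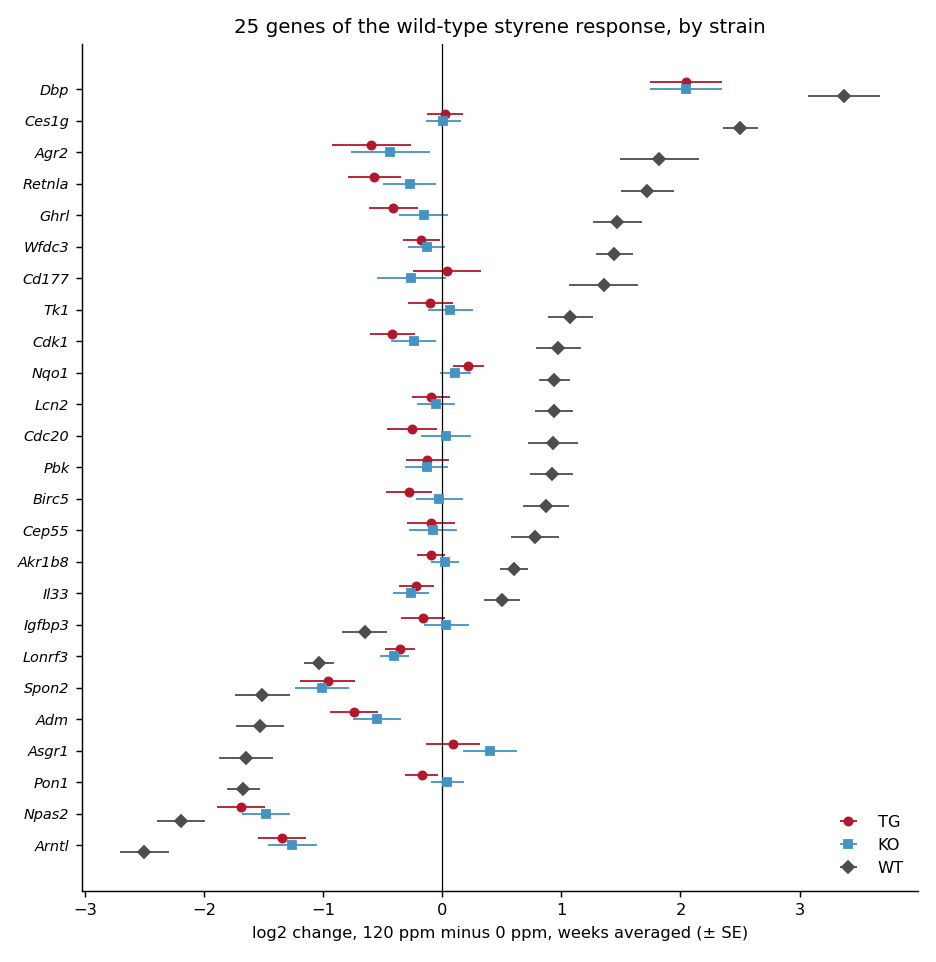
Log2 change at 120 ppm (120 ppm minus 0 ppm, durations averaged) of the WT styrene response genes in TG, KO and WT lungs, with standard errors from the limma fit. The list was chosen with earlier results of these data known. Ces1g lies at 0.02 in TG lungs and at 2.5 in WT lungs, while Npas2 lies at -1.69 in TG lungs and at -2.20 in WT lungs.

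Enzymes that handle styrene and its products did not pass in TG lungs. Of 22 measured cytochromes P450 and their reductase, 0 passed (median -0.04), of 19 glutathione S-transferases 0 (median -0.03), of 15 epoxide and ester hydrolases 0 (median -0.07) and of 23 aldehyde, alcohol and conjugating enzymes 0 (median -0.00). Of the 16 targets of the AhR, CAR and PXR receptors 0 passed. In the same limma fit 0.275% of all genes passed and 1618 had an unadjusted p under 0.05. At that share a list of this size holds on average less than 1 call, so these counts do not set the enzymes apart from other genes, and the same holds for the lists of cell types.

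Cell type lists also held no call in TG lungs, except Spon2 among fibroblast genes. In whole lung, fewer cells of a type and less RNA per cell cannot be told apart. Of 20 club and secretory genes, 19 had a negative sign and 0 passed (median -0.20), and of 14 mucous genes, 13 and 0 (median -0.21). Of all genes 57.4% had a negative sign, and of 16 dendritic cell genes 15 had one. At 4 weeks alone, 14 of the 20 club and secretory genes and 9 of the 14 mucous genes were negative. Clca1, a secreted goblet cell protein, shows how uneven these genes were. It had 3.66, 3.17, 3.64, 2.40 and 2.98 at 120 ppm for 1 week, against 4.56, 7.86, 7.27, 8.83 and 8.08 at 0 ppm. At 4 weeks it had 4.75, 3.56, 2.74, 5.31 and 3.26 at 120 ppm, against 3.12, 6.87, 3.20, 3.49 and 5.27 at 0 ppm. All 5 exposed values at 1 week were under the lowest array median of 4.42, so the sizes of the Clca1 changes are uncertain. The 1-week groups did not overlap and the 4-week groups did, and the change averaged -2.31 (SE 0.70, adjusted p = 0.19). In WT lungs it was 2.00 (adjusted p = 0.073), and the difference was -4.31 (adjusted p = 0.0068).

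Bpifb1, an airway secretory protein, was at -0.24 at 4 weeks and at -2.79 at 1 week, and Muc5b, the airway mucin, at -0.23 and -1.61, none of which passed. Neutrophil genes (17 measured, median -0.07), inflammatory cytokines and chemokines (24 measured, median -0.14) and interferon-stimulated genes (16 measured, median -0.02) held 0 calls.

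Markers of other tissues held no call. Of 12 adipose genes, 11 had a negative sign, against 57.4% of all genes, and 0 passed (median -0.57, with Adipoq at -1.39, adjusted p = 0.43). The mean over the list ranged over 4.77 to 5.98 at 120 ppm for 1 week, against 5.59 to 6.29 at 0 ppm, and over 4.76 to 5.48 at 120 ppm for 4 weeks, against 5.02 to 7.21 at 0 ppm. The part of this tissue in the 47 genes was not tested. Lists of heart and pulmonary vein muscle (14 measured, median -0.10), skeletal muscle (14, median -0.03) and liver-type transcripts (18, median -0.08) held 0 calls.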

How the data were processed

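Lung RNA of 90 mice was hybridised singly to Affymetrix HT MG-430 PM arrays, with 5 animals per group by the labels, so that p-values measure the spread between animals. The deposited log2 values were normalized by the authors; the submitters' processing notes name Partek and RMA, without role or version. Of 45141 probe sets, 104 were controls, 28898 had 1 gene symbol in the platform annotation, 551 several and 15588 none listed. The probe set with the highest mean stood for each of 17097 genes (7180 had several), of which 16936 matched RefSeq (GRCm38.p6). Array medians lay between 4.42 and 4.86, and no 2 arrays were identical (highest correlation 0.997). The number of arrays limits the precision.

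limma 3.58.1 (R 4.3.3) fitted 18 group means to all 90 arrays (72 residual degrees of freedom), with durations averaged in the contrasts and Benjamini-Hochberg adjustment over 17097 genes at 0.05. The procedure was tested on simulated data with independent normal noise for each gene and no arrays of low weight. Of 100 genes changed 1.5-fold 93% passed, and of 100 changed 2-fold 97%, with 9 false calls. The real arrays differed in weight, so these rates need not hold for them. Named genes are the up to 15 largest rises and falls that passed, up to 6 each way in other comparisons (the 3 smallest p where fewer than 3 passed), up to 5 members per list and a fixed set; unnamed clones only among the first 5. The groups, gene lists and rules were chosen with earlier results of these data known. Alternatives changed the normalization, dim genes, probe set choice, variance model, array weights, a replicate block, low-weight arrays, poly-A level, arrays fitted and single animals. Human transgenes and scanner files were not used here.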

Additional observations from a re-analysis of the deposited data

Results flagged for a closer look

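Of 188 groups of 5 TG animals tested for a lone sample by Dixon's ratio, over the passed genes, 11 held one, where chance gives about 5%. Of the 11, 6 were low and 4 came from animal 1 of a group at 120 ppm. At 120 ppm for 1 week, Nr1d2 was high at 11.60 in animal 5, Spaar high at 6.07 in animal 4, and Sspn and Tspan4 low at 8.03 and 9.09 in animal 1, whose array had the lowest weight at 120 ppm. At 120 ppm for 4 weeks, Hlf was high at 7.37 in animal 5 and Sgf29 high at 8.06 in animal 4, while Hsph1 and Stip1 were low at 9.50 and 7.81 in animal 1. At 0 ppm, Creld2 was low at 9.0 in animal 1 of the 1-week group, and in the 4-week group Sdf2l1 was low at 7.92 in animal 1 and Ahsa1 high at 10.13 in animal 2.

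The change at 120 ppm differed between TG and WT lungs, by limma's test of the difference, for 28 of the genes named or passed. It was lower in TG lungs for Clca1 (-4.31), Ces1g (-2.48), Gp2 (-2.44), Agr2 (-2.42), Retnla (-2.29), Ghrl (-1.88), Wfdc3 (-1.62), Cdk1 (-1.39), Cdc20 (-1.18), Tk1 (-1.18), Birc5 (-1.15), Pbk (-1.04), Lcn2 (-1.03), 1700007K13Rik (-0.73), Nqo1 (-0.72), Il33 (-0.72), Akr1b8 (-0.69), Mrps6 (-0.52), Sgf29 (-0.44), H3c4 (-0.35) and H2bc4 (-0.29) on the log2 scale. It was higher in TG lungs for Asgr1 (1.73), Pon1 (1.5), Nr4a3 (1.22), Arntl (1.16), Slc5a12 (1.14), Ifi213 (1.10) and Lonrf3 (0.68). The sizes for Clca1, Ces1g, Gp2, Ghrl, Tk1 and H3c4, whose TG means at 120 ppm lie under the lowest array median, are uncertain. Between TG and KO lungs it differed for 4933424G05Rik (-0.57).

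Among 16139 probe sets with no or several listed genes, 8 passed between TG lungs at 120 and 0 ppm (0.0496%), of which 3 rose.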

How the results depend on the processing

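All 47 genes of TG lungs kept their sign under every alternative, 15 passed in every one where they were measured, and 25 passed whichever single animal was left out. As reported, 47 genes passed and 19.1% of them rose. With array weights 128 passed (48.4% rose), with a replicate block 78 (29.5%), with arrays of a weight under 0.25 left out 61 (32.8%), with the poly-A level as a covariate 51 (33.3%) and with only the compared arrays 36. Leaving out the 2 TG arrays of lowest weight, chosen after seeing the data, gave 37 (51.4% rose). Leaving out 1 animal gave between 28 (without animal 5 at 120 ppm for 1 week) and 85 genes (without animal 1 at 0 ppm for 1 week), and 30 without animal 2 at 0 ppm for 4 weeks. The replicate numbers do not pair animals: deviations of 10 same-numbered TG pairs correlated between -0.61 and 0.33, and 2 animals matched their own number best.

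At 1 week, 8 genes passed as reported, 4 with the median of probe sets, 5 with an intensity trend, 3 with the poly-A covariate, 2 with only the compared arrays, and between 2 (without animal 2 or 3 at 0 ppm, or 2 or 5 at 120 ppm) and 13 (without animal 4 at 120 ppm) without 1 animal. At 4 weeks, 2 passed as reported, 1 after quantile normalization, 0 with the median of probe sets, the intensity trend or only the compared arrays, 106 with array weights, 10 with a replicate block and between 0 and 2 without 1 animal. The interaction of duration gave between 0 and 1. At 40 ppm, 0 passed as reported, 134 with array weights, 13 with arrays under that weight left out, 4 without the 2 TG arrays and up to 18 without 1 animal (animal 1 at 0 ppm for 4 weeks). Between 120 and 40 ppm, array weights gave 19 and leaving out 1 animal up to 1. For TG minus WT, 575 passed as reported, 915 with arrays under that weight left out, 1056 with the poly-A covariate (40.2% higher, against 28% as reported), 206 with only the compared arrays, 191 without the 2 TG arrays, and between 260 (without TG animal 5 at 0 ppm for 1 week) and 1119 (without WT animal 3 at 120 ppm for 1 week) without 1 animal. Counts outside 1.5 times also came without WT animal 2 at 0 ppm for 1 week (270), TG animal 1 at 0 ppm for 1 week (867), WT animal 5 (368), TG animal 3 (919) and TG animal 5 (348) at 120 ppm for 1 week, and WT animal 2 at 120 ppm (380) and at 0 ppm (372) for 4 weeks. For TG minus KO, 1 passed as reported and 0 without dim genes, with array weights or with only the compared arrays. The causes of these shifts were not tested.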
